A study of Mus musculus with 3 samples.

Results

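The 10 contractile genes *Acta2*, *Tagln*, *Myl9*, *Cnn1*, *Cald1*, *Tpm1*, *Tpm2*, *Myh11*, *Actg2* and *Des* were followed through healing mouse skin wounds, with pericytes set against fibroblasts. The list was given as a fixed set of names, each was found by its Ensembl ID, and together they make 10 of the 32285 genes in the count files. Wound tissue of C57BL/6J mice, an inbred wild-type strain, was taken 3, 7 and 14 days after injury and its cells were sequenced singly in droplets. There was 1 library per day and no uninjured skin was analysed here. The study's methods describe adult males whose wound pieces were pooled before dissociation, and the wounds are called incisional in the series record but punch-made excisions in those methods. Differences between days therefore compare single libraries and have no test. Every interval is a 95% interval that covers counting error only. The cell classes were measured side by side in each library, so these were also compared in a fit over the 3 libraries.

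A contractile cell pulls on its surroundings when myosin slides along actin filaments, a step that phosphorylation of the myosin light chain switches on. Pericytes, which wrap the capillaries, and the smooth muscle cells of larger vessels are together called mural cells and carry this apparatus as part of their settled state. Fibroblasts of a healing wound acquire part of it for a time and are then called myofibroblasts, which close the wound by contraction. Smooth muscle α-actin, the product of *Acta2*, is the usual marker of myofibroblasts, but mural cells make the same protein, and serum response factor drives many of these genes through a DNA element called the CArG box.

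The promoters are shown first because the CArG box is the element through which such genes are known to be driven. Promoter windows of the GRCm38.p6 build from RefSeq were matched for 7 of the 10 genes, the exceptions being *Tagln*, *Myh11* and *Actg2*. The CArG box was searched on both strands in the 250 bases before each start, by its name and with an A or T core. An exact box was found for *Myl9* alone, 1 of the 7 genes, and a box with at most 1 mismatch in the core was found for *Acta2* and *Myl9*. Over all 27025 genes with a window, 1.62% held an exact box and 9.78% a box with at most 1 mismatch, and over all 32851 windows 1.47% and 8.59% did. The *Acta2* stretch lies on the minus strand at chr19:34255374-34255467, with boxes that begin 84 and 34 bases before the start, each with 1 mismatch. The start of this window, at base 34255373, lies inside the span of *Acta2* printed below, whose 5′ end at base 34255585 is a more upstream start, and the boxes are placed by the window's start alone. The *Myl9* boxes lie on the plus strand at chr2:156775293-156775322, exact and 161 bases before the start, and at chr2:156775355-156775384, with 1 mismatch and 99 bases before it. The window of *Actg1*, a non-muscle actin gene that is not among the 10, is shown for comparison, from the minus strand at chr11:120348566-120348595. Capitals mark the boxes.
Acta2: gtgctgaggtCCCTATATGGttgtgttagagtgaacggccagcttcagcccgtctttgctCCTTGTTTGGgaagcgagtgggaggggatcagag
Myl9, exact box: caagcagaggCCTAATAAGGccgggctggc
Myl9, box with 1 mismatch: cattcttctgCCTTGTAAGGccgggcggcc
Actg1: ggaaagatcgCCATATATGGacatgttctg

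The actin genes are close copies of each other in their coding parts, so the source of their reads was checked as well. Coding sequences of the GENCODE M21 transcripts of the same genome were compared with *Acta2*. *Actg2*, the actin of visceral smooth muscle, was identical to *Acta2* at 83.8% of 1128 coding bases, and *Acta1*, the skeletal muscle actin, at 85.4%. The same 60-base stretch is printed for these genes, with capitals at the bases that differ from *Acta2*. *Actg2* differs at 11 of these bases and *Acta1* at 8. Libraries of this kind read the 3′ end of a transcript, and in the last 400 transcript bases none of the 5 other actin genes compared shared a 30-base word with *Acta2*.
Acta2, coding bases 61 to 120: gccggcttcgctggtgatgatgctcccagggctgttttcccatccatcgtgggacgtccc
Actg2, coding bases 58 to 117: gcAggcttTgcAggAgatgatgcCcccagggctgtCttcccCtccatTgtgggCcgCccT
Acta1, coding bases 61 to 120: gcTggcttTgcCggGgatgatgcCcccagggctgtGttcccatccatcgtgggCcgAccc

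The libraries held 5158, 22924 and 16611 barcodes on Days 3, 7 and 14, with 38133650, 120940799 and 112713257 UMIs, the unique tags that count captured transcripts. After filtering, 37460 cells were kept and grouped into 30 clusters made without the 10 genes, each cluster being named from fixed marker genes. Fibroblast-like cells numbered 404, 5860 and 5212 and pericyte-like cells 9, 184 and 429. All 9 pericyte markers were detected in the pericyte-like cells, where they summed to 6056, 9580 and 10136 CPM (UMIs of a gene scaled to a fixed total for the class) in order of day, against 249, 126 and 113 CPM in fibroblast-like cells. The 9 fibroblast markers summed to 10820, 17969 and 12176 CPM in pericyte-like cells and to 68720, 117255 and 132214 CPM in fibroblast-like cells. Macrophage-like cells, which should lack them, held 416, 3679 and 5791 CPM of the same list, and the part of carried-over RNA in the pericyte-like values was not tested. Between 19 and 111 barcodes were shared by any pair of libraries, and none of them had identical counts. The 9 pericyte-like cells of Day 3 are too few to carry more than a rough level.

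Every contractile gene was higher in pericyte-like than in fibroblast-like cells on each day. At least 2-fold higher levels were found for 10 of 10 genes in the Day 3 library, for 10 of 10 in the Day 7 library and for 9 of 9 in the Day 14 library, where *Cnn1* was below the level filter. That filter is a mean over both classes, and *Cnn1*, *Myh11*, *Actg2* and *Des* passed it only through their pericyte-like level, so for these the direction was fixed by passing and their calls are no support. The other 6 were above the filter's 10 CPM in both classes on each day. Of all genes counted, 20.9%, 16.9% and 20.4% were that much higher in order of day, and 14.5%, 8.67% and 12.4% that much lower. The median log2 ratio of the genes was 5.74, 3.66 and 6.98 in order of day, beside 0.24, 0.33 and 0.26 over all genes counted. These medians include *Myh11*, *Actg2* and *Des*, and *Cnn1* except on Day 14. They thus cover unlike sets of genes and are given as a description. For each of the other 6 genes the gap was widest in the Day 14 library. It was smallest in the Day 7 library for these genes except *Cald1*. A fit added after the values were seen was edgeR's quasi-likelihood test of the summed counts with the library as a block. In it 10 of 10 genes were higher in pericyte-like cells at a Benjamini-Hochberg adjusted p below 0.05 over 13077 genes. *Cnn1*, *Myh11*, *Actg2* and *Des*, set aside above, are among them and add no support. For the other 6 the adjusted p of this test ran from 1.35e-06 for *Myl9* to 0.000865 for *Cald1*. In the same fit 11.4% of all genes were higher and 13.8% lower. It has 2 residual degrees of freedom and takes the days as replicates of the class difference, and it does not account for the classes having been made from other genes of the same cells.

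*Acta2* (ENSMUSG00000035783; chr19:34240336-34255585), which encodes smooth muscle α-actin, stood at 5472, 3218 and 3380 CPM in pericyte-like cells on Days 3, 7 and 14. In fibroblast-like cells it stood at 116, 280 and 17.0 CPM. The excess in pericyte-like cells was 47.2-fold (44.1 to 50.6) on Day 3, 11.5-fold (11.1 to 11.9) on Day 7 and 199-fold (186 to 213) on Day 14. The pericyte-like level was high on all days, and it was the fibroblast-like level that moved the ratio between Days 7 and 14.

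*Tagln* (ENSMUSG00000032085; chr9:45929628-45936058) encodes transgelin, which binds and bundles actin filaments. Its pericyte-like levels were 1918, 1385 and 2610 CPM and its fibroblast-like levels 24.9, 105 and 14.0 CPM. These gave ratios of 76.9-fold, 13.2-fold (12.5 to 13.9) and 187-fold (173 to 202). As log2 ratios these are 6.26, 3.72 and 7.55, and over the other settings tried they ranged from 4.78 to 6.83, from 3.28 to 4.54 and from 6.50 to 7.89. *Tagln* therefore had the same order of days as *Acta2* in both classes taken as a ratio, with the smallest excess on Day 7.

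*Myl9* (ENSMUSG00000067818; chr2:156775408-156781657), the regulatory myosin light chain whose phosphorylation starts contraction, was measured at 767, 786 and 1122 CPM in pericyte-like and 19.7, 41.9 and 16.7 CPM in fibroblast-like cells. The excess was 38.9-fold, 18.8-fold and 67.0-fold. *Cnn1* (ENSMUSG00000001349; chr9:22099221-22109221) encodes calponin, an actin-binding inhibitor of the myosin motor, and rested on few UMIs. Its levels were 68.2, 39.1 and 17.4 CPM in pericyte-like cells, from 16, 46 and 30 UMIs, against 0.660, 3.21 and 0.372 CPM in fibroblast-like cells. The Day 7 excess of *Cnn1* was 12.2-fold (8.63 to 16.8).

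*Cald1* (ENSMUSG00000029761; chr6:34598495-34775469), *Tpm1* (ENSMUSG00000032366; chr9:67022590-67049672) and *Tpm2* (ENSMUSG00000028464; chr4:43513726-43523583) encode caldesmon and tropomyosins, which lie along the actin filament and gate myosin, and non-muscle forms of caldesmon and tropomyosin 1 are made by many cells. *Cald1* had the smallest excess of the 10 genes on each day, with 1867, 1946 and 2038 CPM in pericyte-like against 725, 589 and 460 CPM in fibroblast-like cells, or 2.57-fold, 3.31-fold and 4.43-fold. *Tpm1* was 6.21-fold, 4.09-fold and 13.9-fold higher in pericyte-like cells. *Tpm2* was 15.1-fold, 4.48-fold and 20.2-fold higher. On the counts deposited, which are summed per gene, isoforms cannot be told apart.

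*Myh11* (ENSMUSG00000018830; chr16:14194527-14292188), the smooth muscle myosin heavy chain, was close to absent from fibroblast-like cells on every day. Pericyte-like cells held 86, 768 and 1332 UMIs of it, which is 366, 652 and 773 CPM. The far larger number of fibroblast-like cells held 2, 29 and 25 UMIs, or 0.102, 0.459 and 0.443 CPM. The Day 7 ratio was 1422-fold (982 to 2137) and the Day 14 ratio 1746-fold (1177 to 2708), while the Day 3 ratio of 3608-fold (969 to 30271) rests on the 2 fibroblast-like UMIs.

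*Actg2* (ENSMUSG00000059430; chr6:83512909-83536251) encodes the visceral smooth muscle actin and stood at 89.5, 129 and 47.0 CPM in pericyte-like and at 1.07, 6.47 and 0.372 CPM in fibroblast-like cells. *Des* (ENSMUSG00000026208; chr1:75360292-75368579), the muscle intermediate filament protein desmin, stood at 516, 345 and 225 CPM in pericyte-like and at 8.53, 3.20 and 0.992 CPM in fibroblast-like cells. The excess of *Des* was 60.4-fold (47.4 to 76.8) on Day 3, 108-fold (90.9 to 128) on Day 7 and 227-fold (171 to 306) on Day 14. *Des* and *Cald1* were the members with a wider gap on Day 7 than on Day 3.

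The size of these ratios depended on how cells were filtered and grouped, although none of them turned. Over the other settings, 16 of the 30 ratios of a gene and day moved by over 1.5 times, *Tagln* on each day among them. On Day 14 the others were *Myh11*, at a log2 ratio of 10.77 with a range of 9.70 to 11.15, and *Actg2*, at 6.98 with a range of 6.09 to 8.72. On Day 7 they were *Acta2*, at 3.52 (3.20 to 4.32), *Myl9*, at 4.23 (3.80 to 4.84), *Cnn1*, at 3.60 (2.42 to 4.86), *Myh11*, at 10.47 (9.66 to 12.16), and *Actg2*, at 4.32 (3.93 to 5.48). On Day 3, with its 9 pericyte-like cells, they were *Acta2*, at 5.56 (4.38 to 5.99), *Myl9*, at 5.28 (4.25 to 5.48), *Tpm1*, at 2.63 (1.93 to 2.89), *Tpm2*, at 3.92 (2.95 to 4.66), *Myh11*, at 11.82 (10.00 to 13.55), and *Actg2*, at 6.39 (4.41 to 7.19). In this paragraph the ranges are over settings and are not counting intervals.

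**Figure D1:**
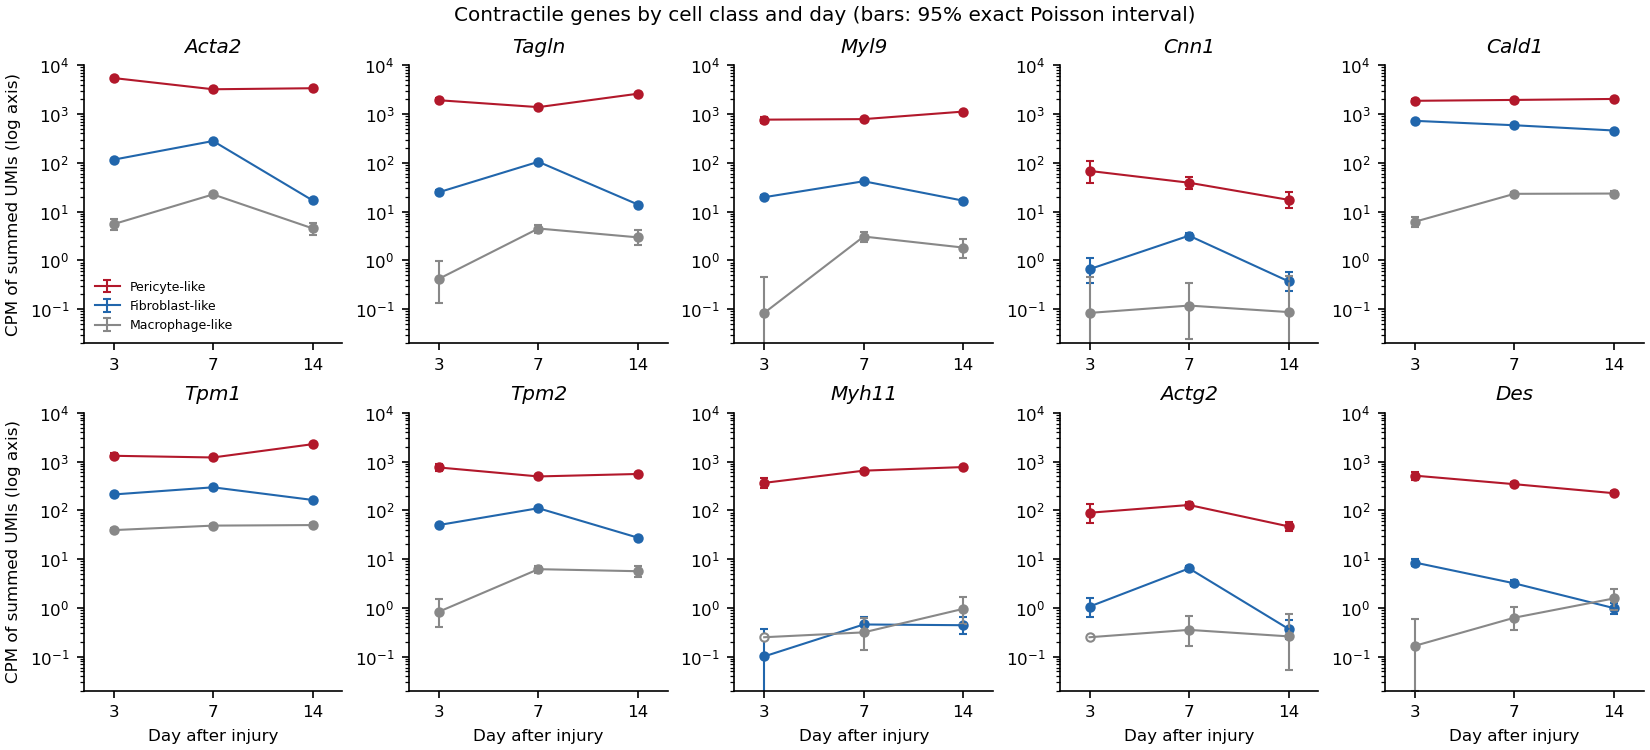
Level of each of the 10 contractile genes in CPM (log axis) on Days 3, 7 and 14 in pericyte-like, fibroblast-like and macrophage-like cells, with 95% Poisson intervals that cover counting error only and open symbols at the limit of 3 counts where no UMI was found. Pericyte-like cells lie above fibroblast-like cells in every panel, from 2.57-fold for *Cald1* on Day 3 to 3608-fold for *Myh11* on the same day.

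Because droplets also take up free RNA, macrophage-like cells were read as a class that should lack most of these genes. *Acta2* stood there at 5.52, 22.5 and 4.53 CPM, and *Tagln* at 0.419, 4.50 and 2.96 CPM. The Day 7 fibroblast-like level of *Acta2* was 280 CPM, above that of macrophage-like cells. Neutrophil-like cells, which should lack *Acta2* too, held 149 of its UMIs on Day 7 among 1309009 UMIs of their class. That is a higher background than in macrophage-like cells, so the margin of the fibroblast-like level depends on the class it is read against. *Myh11* in fibroblast-like cells stood at 0.459 (0.307 to 0.659) CPM on Day 7 and 0.443 (0.287 to 0.654) CPM on Day 14. It was not separated from macrophage-like cells, at 0.316 (0.136 to 0.622) and 0.959 (0.479 to 1.72) CPM. Of the 29 *Myh11* UMIs of the Day 7 fibroblast-like class, 14 lay in the 188 cells richest in *Acta2* that are described below, so its UMIs were not spread evenly over the class. *Des* was above the macrophage-like level on Day 7, at 3.20 against 0.632 CPM, and was not on Day 14, at 0.992 (0.750 to 1.29) against 1.57 (0.930 to 2.48) CPM.

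The genes were also read per UMI of *Rgs5*, the leading pericyte marker. On Day 7 the cells held 0.464 *Acta2* UMIs per *Rgs5* UMI in the pericyte-like class and 81.2 (71.0 to 93.2) in the fibroblast-like class. *Myh11* stood at 0.0941 (0.0872 to 0.101) per *Rgs5* UMI in pericyte-like and 0.133 (0.0870 to 0.197) in fibroblast-like cells. *Des* stood at 0.0497 (0.0449 to 0.0549) per *Rgs5* UMI in pericyte-like and 0.927 (0.761 to 1.13) in fibroblast-like cells. The intervals of the compared classes overlap for *Myh11* and lie apart for *Acta2* and *Des*, and the part of carried-over RNA in these values was not tested.

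Shares of cells were read after every cell was thinned to 500 UMIs, so that depth did not set them. On Day 7, *Acta2* was found in 7.78% of 5860 fibroblast-like, 48.9% of 184 pericyte-like and 1.09% of 8499 macrophage-like cells, and without thinning in 33.3%, 81.0% and 6.02%, at median depths of 10354, 5592 and 2680 UMIs. On Day 14 the thinned shares for *Acta2* were 0.748%, 54.3% and 0.280%. *Myh11* was found in 25% of pericyte-like cells on Day 7 and 23.5% on Day 14, and in 0 of 5860 and 0 of 5212 fibroblast-like cells, which allows shares of up to 0.0512% and 0.0576% of cells with a UMI at that thinned depth. Without thinning, 0.341% and 0.441% of the fibroblast-like cells held a *Myh11* UMI, against 0.0941% and 0.315% of macrophage-like cells, which were shallower. *Cald1*, by contrast, was found in 21.9% of Day 7 and 19.7% of Day 14 fibroblast-like cells. In fibroblast-like cells of Day 7 thinned to 500 UMIs, a gene of the list was thus found in between 0 and 21.9% of the cells.

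Day by day, the fibroblast-like levels differed in the same direction for most but not all of the list. The median depth of these cells was 44305.5, 10354 and 10517 UMIs in order of day, and its part in the values was not tested. From Day 3 to Day 7, 7 of the 10 genes were at least 2-fold higher, where 4.37% of all genes passing the filter were higher and 9.02% lower. Of the 6 members that passed it, 4 were higher. The log2 ratios were 1.27 for *Acta2*, 2.07 for *Tagln*, 1.09 for *Myl9*, 2.28 for *Cnn1*, 1.15 for *Tpm2*, 2.60 for *Actg2* and 2.18 (0.19 to 5.29) for *Myh11*, the last from 29 against 2 UMIs. *Tpm1* stood at 0.49 and *Cald1* at -0.30. *Des* went the other way, at -1.42 (-1.72 to -1.11). With each library clustered alone, only 3 of the 10 genes were at least 2-fold higher and *Myh11* was lower, at a log2 ratio of -3.21. That setting named 0 Day 3 cells pericyte-like and 530 fibroblast-like, in place of 9 and 404. Its Day 3 fibroblast-like values may thus include pericyte-like cells, which was not tested. Over all other settings the lowest log2 ratio of *Acta2* was 0.65, and the log2 ratio ranged from 1.16 to 2.53 for *Tagln*, from 1.15 to 3.00 for *Cnn1*, from 0.93 to 1.87 for *Tpm2*, from 1.62 to 2.83 for *Actg2* and from -2.25 to -0.78 for *Des*.

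The clusters that made up the fibroblast-like class also differed between these days. On Day 3, 240 and 161 of the 404 cells lay in clusters 4 and 18 and 0 in cluster 9, which held 1421 cells on Day 7. Within cluster 4 *Acta2* stood at 96.4 CPM on Day 3 and 113 CPM on Day 7, *Myl9* at 13.6 and 16.1 CPM, *Tagln* at 12.3 and 41.9 CPM, *Tpm2* at 37.0 and 76.3 CPM and *Des* at 9.59 and 3.08 CPM. Within cluster 18 *Acta2* stood at 138 and 713 CPM, *Tagln* at 38.7 and 278 CPM and *Myl9* at 26.2 and 84.3 CPM. The difference in *Acta2* and *Myl9* was thus under 2-fold in cluster 4 and over 2-fold in cluster 18, and the part of cell numbers per cluster in the class values was not tested.

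From Day 7 to Day 14, 7 of the 10 genes were at least 2-fold lower in fibroblast-like cells, beside 3.24% of all genes lower and 2.07% higher. Of the 6 that passed the level filter, 4 were lower. *Acta2* was 16.5-fold lower (15.5 to 17.6) and *Actg2*, the other smooth muscle actin, 17.4-fold lower (11.2 to 28.4), which is a log2 ratio of -4.12 that ranged from -5.79 to -3.65 over the 12 other settings. *Cnn1* was 8.63-fold, *Tagln* 7.52-fold, *Tpm2* 4.02-fold, *Des* 3.22-fold and *Myl9* 2.50-fold lower. The *Tagln* value moved with the cells counted as fibroblast-like: its log2 ratio of -2.91 became -2.14 when an unnamed cluster led by *Igfbp2*, of which 1446 cells came from Day 14 and which held all 9 fibroblast markers, was added, and it ranged from -3.19 to -2.06 over the 12 other settings. *Tpm1*, at 1.82-fold, and *Cald1*, at 1.28-fold, were lower by less than the 2-fold limit. *Myh11* differed by no more than its counting error, at a log2 ratio of -0.05 (-0.88 to 0.77) that ranged from -1.24 to 0.90 over 11 other settings.

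The fibroblast-like class also changed its make-up between these days. Cluster 0, led by *Mgp*, *Angptl1* and *Thbs4*, held 550 of the 5860 cells on Day 7 and 3820 of the 5212 on Day 14, while clusters 4 and 9 went from 2221 and 1421 cells to 57 and 112. Within cluster 0 *Acta2* stood at 14.4 (11.2 to 18.2) CPM on Day 7 and 14.98 (13.8 to 16.2) CPM on Day 14, *Tagln* at 4.32 and 10.3 CPM, *Myl9* at 7.41 and 17.0 CPM and *Tpm1* at 123 and 160 CPM. *Myh11* stood there at 1.03 (0.334 to 2.40) and 0.489 (0.303 to 0.748) CPM. In each of the other 5 clusters *Acta2* was lower on Day 14, in cluster 9 at 667 against 74.9 CPM, in cluster 4 at 113 against 41.9 CPM, in cluster 18 at 713 against 177 CPM, in cluster 8 at 16.9 against 2.13 CPM and in cluster 22 at 121 against 34.3 CPM. *Myl9* did not share this in every cluster, being at 5.22 against 8.03 CPM in cluster 8 and, from 3 UMIs on Day 7, at 10.1 against 21.98 CPM in cluster 22. *Tagln* stood at 248 against 186 CPM in cluster 9 and at 4.65 against 5.08 CPM in cluster 8. How much of the class difference came from the numbers of cells in each cluster was not tested.

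Pericyte-like cells did not share that pattern. From Day 7 to Day 14 only *Actg2*, at a log2 ratio of -1.46 (-1.86 to -1.06), and *Cnn1*, at -1.17 (-1.88 to -0.47), were at least 2-fold lower, 2 of 10 beside 13.3% of all genes, and none was at least 2-fold higher, beside 7.03%. *Acta2* stood at 0.07 (0.01 to 0.13), *Cald1* at 0.07, *Tpm2* at 0.17 and *Myh11* at 0.25 (0.12 to 0.38). *Tagln*, at 0.91 (0.83 to 1.00), *Tpm1*, at 0.91, and *Myl9*, at 0.51, were higher on Day 14. *Des* stood at -0.61 (-0.82 to -0.41). Both lower calls moved without pericyte-like sub-cluster 1, described below, which is 15 of the 184 cells on Day 7 and 130 of the 429 on Day 14. *Actg2* then stood at -0.98, just inside the 2-fold limit, and *Cnn1* at 0.06. In the same setting *Tagln* passed 2-fold in the other direction, at 1.36.

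The pericyte-like class was made up of different sub-clusters on these days, with 86 cells in sub-cluster 3 and 64 in sub-cluster 4 on Day 7 and 148, 130 and 114 cells in sub-clusters 0, 1 and 2 on Day 14. Of the 3 sub-clusters with at least 10 cells on both days, *Tagln* was higher on Day 14 only in sub-cluster 0, at 2181.5 against 3741 CPM. It was lower in sub-cluster 1, at 6896 against 2569 CPM, and close in sub-cluster 3, at 761 (678 to 852) against 694 (523 to 904) CPM. *Tpm1* stood at 1214 and 2628 CPM in sub-cluster 0, at 3202 and 2810 CPM in sub-cluster 1 and at 1048 and 1035 CPM in sub-cluster 3. The higher *Tagln* and *Tpm1* of the whole class on Day 14 were therefore not shared by each of its parts.

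The place of the transcripts in the wound followed from levels and cell numbers together. On Day 7, 77.4% (76.9 to 78.0) of all *Acta2* UMIs in the library lay in fibroblast-like cells and 16.6% (16.1 to 17.1) in pericyte-like cells. On Day 14 the shares were 12.9% (12.1 to 13.6) and 78.2% (77.2 to 79.1). *Tagln* had a similar exchange, from 77.3% fibroblast-like and 19.0% pericyte-like on Day 7 to 11.6% and 66.1% on Day 14. Another 12.9% of the Day 14 *Tagln* UMIs lay in the unnamed cluster led by *Igfbp2*, and with it the fibroblast-like share would be 24.5%. *Myh11* lay in pericyte-like cells on every day, at 96.6%, 94.2% and 94.2%. *Cald1* lay mostly in fibroblast-like cells on every day, at 95.1%, 89.3% and 71.7%. The number of genes with over 50% of their UMIs in pericyte-like cells was 2 on Day 3, 2 on Day 7 and 7 on Day 14. That count was not made over all genes, so its rise cannot be read as particular to these genes. These shares depend on how many cells of each class were recovered, and pericyte-like cells made up 0.206%, 0.939% and 3.18% of the cells kept.

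**Figure D2:**
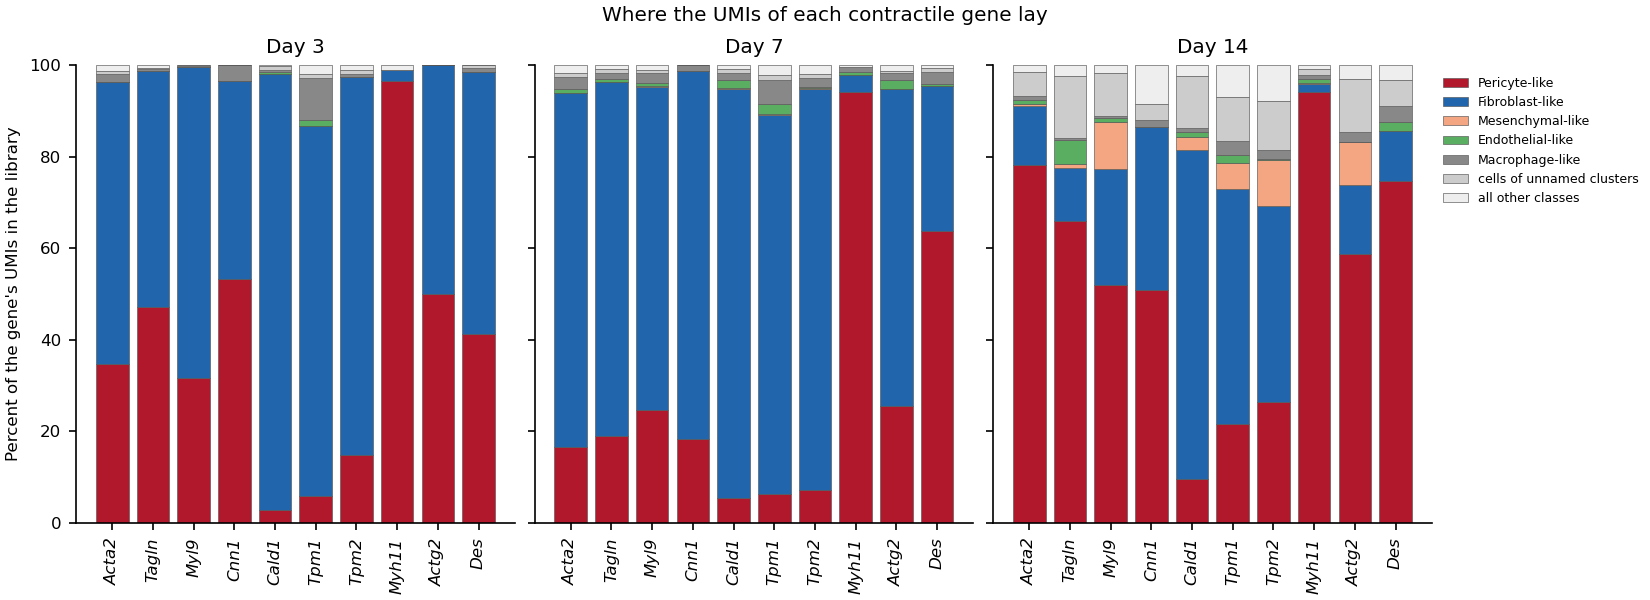
Percent of all UMIs of each contractile gene found in each cell class, as stacked bars for Days 3, 7 and 14. The *Acta2* bar is 77.4% fibroblast-like on Day 7 and 78.2% pericyte-like on Day 14, while *Myh11* stays at 94.2% or more in pericyte-like cells.

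Myofibroblasts were then set against pericytes directly. Each fibroblast-like cell with at least 2000 UMIs was thinned to 2000, and cells with at least 5 *Acta2* UMIs were called *Acta2*-high. Such cells numbered 188 of 5795 on Day 7 (3.24%, 2.80 to 3.73), but only 2 of 393 in the Day 3 library and 2 of 5141 (0.0389%) in that of Day 14. Of pericyte-like cells at the same depth, 3 of 8, 62 of 173 (35.8%) and 165 of 371 (44.5%) met the same limit. The 188 cells of Day 7 had an *Acta2* level of 3251 CPM, next to 3253 CPM in the 173 pericyte-like cells and 160 CPM in the 5607 other fibroblast-like cells. The rule sets the *Acta2* level of these cells, so it is given as a description. They carried the fibroblast markers *Col1a1*, at 29564 CPM against 7436 CPM in pericyte-like cells, and *Pdgfra*, at 176 against 18.9 CPM. Of the pericyte markers, *Rgs5* stood at 17.2 against 6876 CPM and *Higd1b* at 0 UMIs against 241 CPM. These genes are on the lists that named the classes, so their values are a description and no support. When fibroblast-like cells with any pericyte marker UMI were left out, 109 *Acta2*-high cells were counted on Day 7 in place of 188.

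Beside this near-equal mean *Acta2* level, most of the other contractile genes were within 2-fold in both kinds of cell. Of the 9 other genes, 2 were at least 2-fold higher in pericyte-like cells and 0 were lower, where 14% of all genes were higher and 8.9% lower. *Myh11*, among the 2, passed the level filter only through its pericyte-like level, so its direction was fixed and its call is no support. *Tagln* stood at 1398 CPM in pericyte-like and 1242 CPM in *Acta2*-high cells, a log2 ratio of 0.17 (0.08 to 0.26). *Tpm1* stood at 1225 and 1252 CPM, a log2 ratio of -0.03 (-0.12 to 0.06). *Tpm2* stood at 502 and 641 CPM, a log2 ratio of -0.35 (-0.49 to -0.21). *Cnn1* stood at 39.6 and 49.6 CPM, a log2 ratio of -0.33 (-0.85 to 0.17) that rests on few cells: the 15 cells of pericyte-like sub-cluster 1 held 27 of the 46 *Cnn1* UMIs of the Day 7 class. Without them *Cnn1* was over 2-fold lower in pericyte-like cells, at -1.51, and over the 7 other settings it ranged from -2.06 to 0.86. *Actg2*, at 0.45, *Cald1*, at 0.62, and *Myl9*, at 0.97 (0.83 to 1.10), leaned to pericyte-like cells without passing 2-fold.

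The 2 genes past the limit were *Myh11* and *Des*. *Des* was above the filter's 10 CPM in both groups. *Myh11* was not, so its call is no support here or in the counts that follow, and its values are a description. *Myh11* stood at 659 CPM in pericyte-like cells and 5.74 CPM in *Acta2*-high fibroblast-like cells, from 766 and 14 UMIs, a 115-fold difference (68.0 to 211). It was seen in 68.8% of the pericyte-like and 3.19% of the *Acta2*-high cells. *Des* stood at 345 and 19.3 CPM, a 17.9-fold difference (13.2 to 24.8), and was seen in 77.5% and 14.4% of cells. Both differences held under all 7 other settings tried, between log2 5.66 and 7.65 for *Myh11* and between 4.12 and 4.70 for *Des*. When the pericyte-like cells were also held to the *Acta2* limit, a comparison added after the values were seen, 5 of the 9 genes, *Tagln*, *Myl9*, *Myh11*, *Actg2* and *Des*, were at least 2-fold higher in them and 0 lower, where 14.6% of all genes were higher and 9.38% lower. Over the 7 other settings the log2 ratio without that limit ranged from -0.73 to 1.06 for *Tagln*, from 0.27 to 1.70 for *Myl9*, from -0.79 to 0.47 for *Tpm2*, from -0.42 to 0.56 for *Tpm1* and from -0.75 to 1.49 for *Actg2*.

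**Figure D3:**
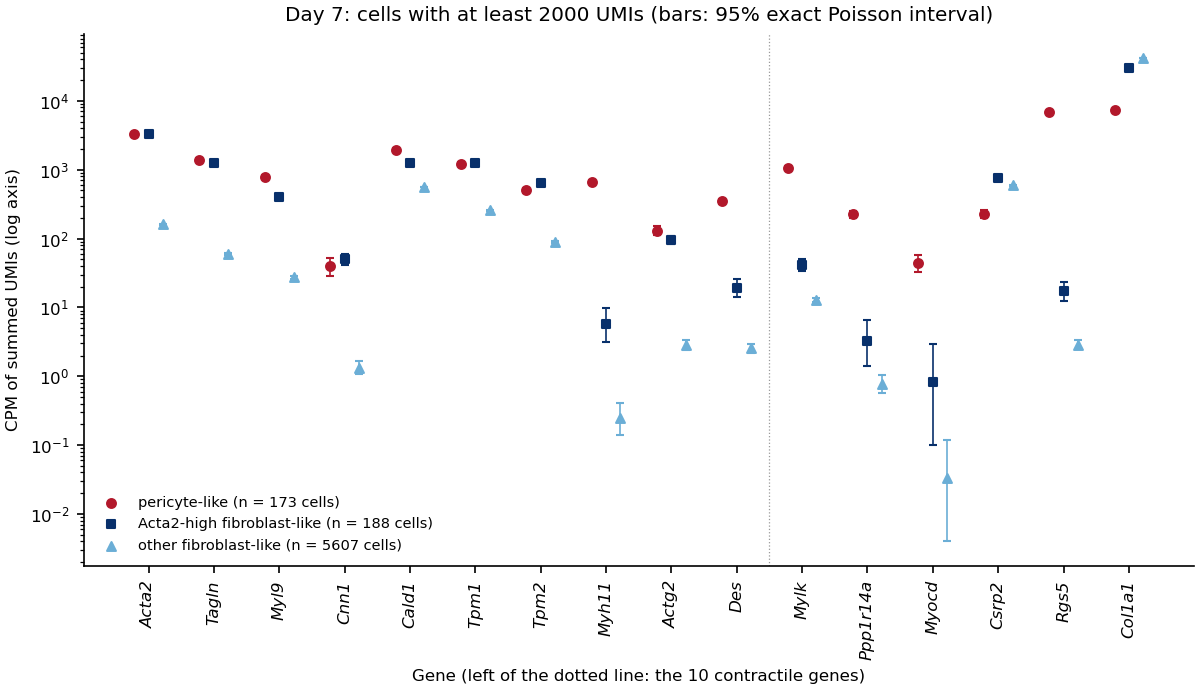
Day 7 levels in CPM (log axis) of the 10 contractile genes and of *Mylk*, *Ppp1r14a*, *Myocd*, *Csrp2*, *Rgs5* and *Col1a1* in 173 pericyte-like, 188 *Acta2*-high fibroblast-like and 5607 other fibroblast-like cells, with 95% Poisson intervals. The *Acta2* points of the pericyte-like and *Acta2*-high cells lie at 3253 and 3251 CPM, the latter set by the rule. *Rgs5*, *Myh11*, *Ppp1r14a*, *Myocd*, *Mylk* and *Des* are the genes shown at which these groups part most widely, from 399-fold down to 17.9-fold. *Rgs5* is on the list that named the pericyte-like cells. *Myh11*, *Ppp1r14a* and *Myocd* passed the level filter only through those cells, so the direction of these and of *Rgs5* was fixed.

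The *Acta2*-high cells were also set against the other fibroblast-like cells of Day 7, where 4.8% of all genes were at least 2-fold higher and 5.95% lower, with a median log2 ratio of 0.22. *Acta2* itself is higher by the rule. *Cnn1* was 37.2-fold higher, *Actg2* 33.5-fold, *Tagln* 21.0-fold, *Myl9* 14.7-fold, *Des* 7.59-fold, *Tpm2* 7.15-fold, *Tpm1* 4.84-fold and *Cald1* 2.26-fold. *Cnn1*, *Actg2* and *Des* had only 81, 173 and 154 UMIs in the 5607 other cells and passed the level filter only through the *Acta2*-high cells. Their direction was fixed by passing, so their calls are no support. *Myh11*, below the filter, was 23.2-fold higher (10.4 to 51.6) from 14 against 15 UMIs. *Rgs5* was also 5.97-fold higher (4.16 to 8.40) in these cells, from 42 against 175 UMIs, and its part in the *Myh11* value was not tested.

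The make-up of the contractile RNA differed accordingly. Of the UMIs of the 10 genes, *Acta2* made up 39.5% in *Acta2*-high fibroblast-like, 31.6% in pericyte-like and 13.8% in other fibroblast-like cells. The *Acta2*-high cells were selected on *Acta2*, so its high share there follows from the rule and lowers the shares of the other genes. All shares of that group are a description. *Myh11* made up 6.40% in pericyte-like and 0.0698% in *Acta2*-high cells, and *Des* 3.35% and 0.234%. The other fibroblast-like cells were led by *Cald1*, at 48.3%, and *Tpm1*, at 22.2%.

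Other genes of the contractile apparatus, a list of 37, were read by role. In pericyte-like over fibroblast-like cells, 20 of 33, 21 of 33 and 21 of 34 counted genes were at least 2-fold higher in order of day, beside 20.9%, 16.9% and 20.4% of all genes. Those at least 2-fold lower numbered 1, 2 and 2, beside 14.5%, 8.67% and 12.4%. Against the *Acta2*-high cells of Day 7 the higher count was 13 of 33, beside 14% of all genes, with 2 lower, beside 8.9%. The level filter is a mean over both groups here too. *Myocd*, *Ppp1r14a*, *Lmod1* and *Synpo2* failed it in each comparison between fibroblast-like cells and passed here through their pericyte-like level. *Pdlim3* failed it in the same comparisons and passed here on Day 14 alone. For these, and for any other gene under 10 CPM in the fibroblast-like cells compared, the direction was fixed by passing. Their calls are no support, although the counts above include them. *Mylk* was such a gene on Days 3 and 14, but not against the *Acta2*-high cells. The enzymes that switch contraction on and off accounted for 7 of those 13, *Ppp1r14a* with its fixed direction among them. *Mylk*, the myosin light chain kinase, stood at 1069 CPM in pericyte-like and 41.0 CPM in *Acta2*-high cells, a 26.1-fold difference (21.3 to 32.3). *Ppp1r14a*, an inhibitor of the myosin phosphatase, differed 68.2-fold (34.1 to 160), *Prkg1*, the cGMP-dependent kinase that relaxes smooth muscle, 9.91-fold and *Ppp1r12b*, a phosphatase subunit, 5.52-fold. *Ppp1r12a*, *Rock1* and *Rock2* differed 3.30-fold, 2.37-fold and 2.32-fold, and *Rhoa* was the enzyme of this group that stayed under 2-fold, at 1.41-fold.

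Among the regulators, *Myocd*, the smooth muscle coactivator of serum response factor, was 53.5-fold higher in pericyte-like than *Acta2*-high cells (14.1 to 454), with only 2 UMIs in the latter. *Mrtfb*, a related coactivator, was 2.21-fold higher. *Srf* itself stood at 18.1 and 15.6 CPM, a log2 ratio of 0.21 (-0.63 to 1.02), and *Mrtfa* at 0.50 (-0.26 to 1.24). Of the filament proteins, *Lmod1*, which nucleates actin filaments, was 9.99-fold and *Synpo2* 115-fold higher, the latter against 3 UMIs, with *Actn4* at 2.18-fold and *Vcl*, the adhesion protein vinculin, at 2.04-fold. *Csrp2* was lower in pericyte-like cells, at a log2 ratio of -1.74 (-1.93 to -1.55). Among the 10 non-muscle and shared isoforms, 0 were higher and only *Myh10*, a non-muscle myosin heavy chain, was lower, at -3.11 (-3.88 to -2.43).

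The *Acta2*-high cells were also set against the other fibroblast-like cells over that list. Of 29 counted apparatus genes 13 were at least 2-fold higher and 0 lower, beside 4.8% and 5.95% of all genes. They included the non-muscle isoforms *Actb*, *Myl6*, *Myl12a*, *Myh9*, *Tpm4* and *Cnn2* and the filament and adhesion proteins *Csrp1*, *Pdlim7*, *Flna*, *Vcl* and *Actn1*. *Cnn2* was 4.71-fold, *Csrp1* 5.02-fold, *Actn1* 3.53-fold and *Flna*, the actin cross-linker filamin A, 3.07-fold higher. *Mylk* was 3.21-fold (2.58 to 3.96) and *Srf* 2.16-fold higher. *Srf* was under 10 CPM in the other fibroblast-like cells and passed the level filter only through the *Acta2*-high cells. Its direction was thus fixed, as for any other gene under 10 CPM there, and such calls among the 13 are no support.

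By day, 5 of 28 counted apparatus genes were at least 2-fold lower in fibroblast-like cells on Day 14 than on Day 7 and 0 were higher, beside 3.24% and 2.07% of all genes. These were *Csrp1*, *Flna*, *Actn1*, *Myh9* and *Cnn2*. In pericyte-like cells 3 of 35 were lower, *Smtn*, *Kcnmb1* and *Actg1*, and 1 was higher, *Synpo2*, which are shares below the 13.3% and 7.03% of all genes. *Mylk* in pericyte-like cells stood at 878, 1063 and 923 CPM in order of day and in fibroblast-like cells at 6.50, 13.8 and 8.65 CPM.

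Where the *Acta2*-high fibroblasts lay was read from 12 sub-clusters of the Day 7 fibroblast-like cells, made without the contractile and apparatus genes. Sub-cluster 1, 783 cells led by *Mmp13*, *Col11a1* and *Spp1*, held 113 of the 188 *Acta2*-high cells and had *Acta2* at 1011 CPM, *Tagln* at 363 CPM and *Myh11* at 1.37 CPM. Sub-cluster 8, 396 cells led by cell-cycle genes such as *Top2a* and *Cenpf*, held 44 of them and had *Acta2* at 739 CPM. A small sub-cluster of 46 cells led by *Cyp26b1* and *Masp1* had *Acta2* at 927 CPM and the highest *Tagln* level of any, 729 CPM, with 0 UMIs of *Myh11* and *Des*, which at its depth allows up to 6.77 CPM of each. The lowest level was that of 477 cells led by *Fgl2*, with *Acta2* at 7.87 CPM and *Tagln* at 3.82 CPM. Sub-cluster 9, 251 cells led by *Ccr2*, *Ctss* and *Ms4a7*, and sub-cluster 10, 70 cells led by *S100a9* and *S100a8*, were led by genes of macrophages and neutrophils although their cells had been grouped as fibroblast-like, and these held 3 and 0 of the *Acta2*-high cells. *Acta2* thus spanned 7.87 to 1011 CPM between fibroblast-like sub-clusters of a single day, and *Cald1* only 289 to 993 CPM.

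The pericyte-like cells were uneven as well. Single cells with at least 2000 UMIs had *Acta2* quartiles of 313, 1440 and 3426 CPM on Day 7, up to 34459 CPM, and 322, 1695 and 4746 CPM on Day 14. The quartiles of *Myh11* were 0, 286 and 798 CPM on Day 7 and 0, 387 and 930 CPM on Day 14. Part of this spread is counting error in shallow cells.

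In 5 sub-clusters of the pericyte-like cells, made without the same genes, *Acta2* over all days lay between 1282 and 4989 CPM and *Myh11* between 282 and 1887 CPM. Sub-cluster 1, 145 cells, had the highest *Myh11* level and the highest level of 6 of the 7 vascular smooth muscle markers, among them *Pln*, at 43.8 CPM, *Casq2*, at 40.3 CPM, and *Map3k7cl*, at 133 CPM. The seventh, *Synpo2*, was highest in sub-cluster 0, at 391 CPM, against 224 CPM in sub-cluster 1 and 226 CPM in sub-cluster 3. Over the class as a whole, the 7 vascular smooth muscle markers summed to 349, 281 and 483 CPM, and the part of smooth muscle cells in the pericyte-like values was tested only by leaving this sub-cluster out. On Day 7 it was 15 cells with *Acta2* at 10781 CPM and *Myh11* at 4337 CPM, and on Day 14 it was 130 cells at 2954 and 1527 CPM. Sub-cluster 0, 159 cells led by *Ccl19*, had *Acta2* at 4989 CPM with *Myh11* at 621 CPM. Sub-cluster 2, 122 cells of which 114 came from Day 14, was led by *Pi16*, *Clec3b* and *Cd34*, genes known from fibroblasts and with no pericyte marker among the leading ones, while it held *Rgs5* at 8266 CPM and *Notch3* at 682 CPM. It had *Acta2* at 1282 CPM and 0 UMIs of *Cnn1* and *Actg2*. Sub-cluster 3, 116 cells of which 86 came from Day 7, had *Acta2* at 1423 CPM and *Des* at 422 CPM, the highest over all days together. Sub-cluster 4, 80 cells led by cell-cycle genes, had *Acta2* at 3866 CPM and the highest *Actg2* level, 153 CPM. Over all days together these levels also follow the days from which the cells came. In the Day 7 library alone *Acta2* was highest in sub-cluster 1, at 10781 CPM, against 2938 CPM in the 11 cells of sub-cluster 0, and *Des* stood at 581 (400 to 815) CPM in sub-cluster 0, 479 (334 to 666) CPM in sub-cluster 1 and 440 (377 to 510) CPM in sub-cluster 3, with overlapping intervals.

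In the Day 7 library the 4 pericyte-like sub-clusters with at least 10 cells held *Myh11* between 243 and 4337 CPM, and the 7 fibroblast-like sub-clusters with a *Myh11* UMI held it between 0.225 and 1.37 CPM. The other 5 held 0 UMIs, which by 3 counts allows up to 0.494, 0.513 and 1.14 CPM in the larger ones and up to 4.11 and 6.77 CPM in those of 70 and 46 cells. Leaving sub-cluster 1 out, which was decided after the values were seen, lowered the Day 7 log2 ratio of pericyte-like to fibroblast-like cells from 3.52 to 3.28 for *Acta2*, from 3.60 to 2.42 for *Cnn1* and from 10.47 to 9.80 for *Myh11*, and all 10 genes were still at least 2-fold higher.

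**Figure D4:**
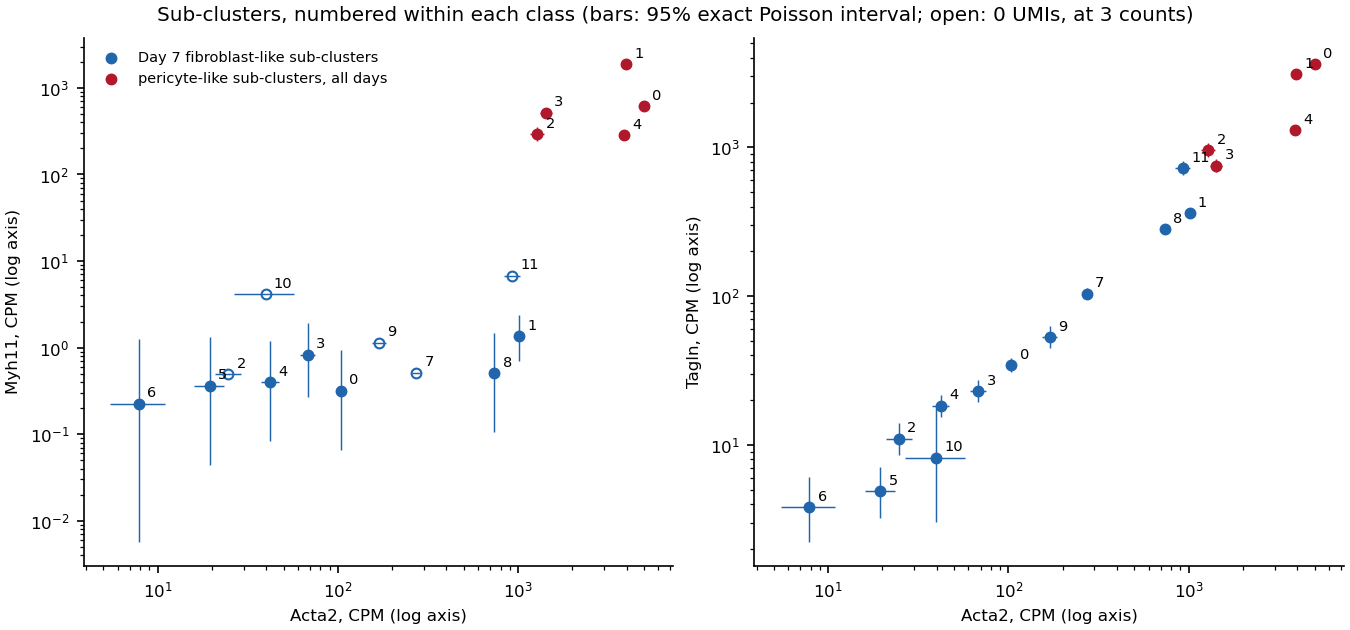
*Acta2* level against *Myh11* level (left) and against *Tagln* level (right) in CPM on log axes for the sub-clusters of Day 7 fibroblast-like cells and of pericyte-like cells, each point being 1 sub-cluster. Pericyte-like points are sums over all days and fibroblast-like points are of Day 7. The fibroblast-like point with *Acta2* at 1011 CPM has *Myh11* at 1.37 CPM, the highest of the 7 with a *Myh11* UMI, and the other 5 allow up to 6.77 CPM.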

How the data were processed

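Wound tissue from 3 libraries, 1 for each of Days 3, 7 and 14, was read with the Chromium 3′ v3 chemistry. The deposited files hold raw UMI counts per gene and barcode, made by the authors with Cell Ranger 6.0.0 on mm10 according to the submitters' processing notes, with no normalization. Every barcode of the files carried at least 500 UMIs. Here cells with fewer than 200 genes or 500 UMIs, or with over 10% mitochondrial UMIs, were left out, and simulated-doublet scoring removed 92, 1978 and 962 cells (2.07%, 9.17% and 6.65%), leaving 4360, 19590 and 13510. The cells of all libraries were clustered together (2000 variable genes, 30 components, 15 neighbours, Leiden resolution 1) without the contractile and apparatus genes, and clusters were named from marker lists. A cluster whose leading genes went against its best list stayed unnamed.

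The counts of a class in a library were added up and scaled to CPM, with exact Poisson intervals. Ratios have exact conditional binomial intervals and shares Clopper-Pearson intervals, all at 95%, and a count of 0 was set to a limit of 3 counts. UMIs of 1 cell are not independent of its state, so these cover counting error only. A gene entered the counts of 2-fold differences with at least 10 UMIs in both groups together and a mean of at least 10 CPM. Cells are not replicates and there is 1 library per day, so days were not tested. The classes were tested over the 3 libraries with edgeR 4.0.16 (R 4.3.3) on the summed counts, with the library as a block and edgeR's own filter on low counts, and with DESeq2 1.42.0 as an alternative. All 10 genes were named whatever their values, and apparatus genes by role. The members and lists were chosen with earlier results of these data known. Sub-clusters were made within a class by the same steps. Promoter windows came from RefSeq GRCm38.p6 and coding sequences from GENCODE M21. The ratios and the edgeR fit were checked on simulated data. The alternatives of the closing section changed scaling, cell weights, class assignment, clustering, doublets, filters and thinning. Software was Python 3.11.15 with numpy 2.4.6, scipy 1.17.1, pandas 2.3.3, scikit-learn 1.9.0, igraph 0.11.9, leidenalg 0.10.2 and matplotlib 3.10.9.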

Additional observations from a re-analysis of the deposited data

Results flagged for a closer look

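For 7 of the 10 genes the direction from Day 7 to Day 14 was opposite in the compared classes, higher in pericyte-like and lower in fibroblast-like cells. For 5 of them both counting intervals were clear of 0, which singled them out, and the other two, *Cald1* and *Myh11*, had an interval that included 0, in pericyte-like cells for the first and in fibroblast-like cells for the second. Each day is 1 library, so the difference was not tested. The same counts were not made over all genes, so they do not set the contractile genes apart. The log2 change of pericyte-like cells minus that of fibroblast-like cells was 4.11 for *Acta2*, 3.82 for *Tagln*, 2.17 for *Tpm2*, 1.84 for *Myl9* and 1.77 for *Tpm1*. For *Tagln*, *Myl9* and *Tpm1* the pericyte-like level was higher on Day 14 under all 10 other settings tried. For *Acta2*, with log2 ratios from -0.31 to 0.39, and *Tpm2*, from -0.20 to 0.46, it was not, so that for these the opposite direction rests on the setting, while the fibroblast-like levels were lower under every setting tried.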

How the results depend on the processing

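Between days, no paired analysis was possible because each day is 1 library. The classes were paired within libraries, and in that fit 10 of 10 contractile genes were higher in pericyte-like cells. The same held without each library in turn, with no replicate block, with no filter on low counts and with DESeq2. The 10 include *Cnn1*, *Myh11*, *Actg2* and *Des*, whose calls are set aside above. Without a library the fit has 1 residual degree of freedom. All these fits reuse the same sums, so they add no separate support. The share of all genes that were higher ranged there from 5.46%, with no block, to 12%, without Day 3. Of 404 recomputed log2 ratios of pericyte-like over fibroblast-like cells, 0 were at or below 0, with no value where a setting left a gene at 0 in fibroblast-like cells. Over all results, 993 values were recomputed. Among counts of genes 139 stayed within 1.5 times and 16 moved, and among single values 571 stayed, 251 moved and 16 reversed. The cause of none was tested.

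Libraries clustered alone left no Day 3 pericyte-like cells, gave 3 contractile genes at least 2-fold higher in fibroblast-like cells from Day 3 to Day 7 in place of 7, 0 genes with over 50% of Day 3 UMIs in pericyte-like cells in place of 2 (1 with at most 5% mitochondrial UMIs) and 0 apparatus genes lower on Day 14 in place of 2. That last count was 1 with equal weight per cell, with classes from each cell's own markers, with called doublets kept and at 4-fold. The Day 7 count of lower apparatus genes was 1 in place of 2 with doublets kept and at 4-fold, and at 4-fold the higher apparatus genes numbered 11 on Day 3 and 8 on Day 7. Of the 2 contractile genes lower in pericyte-like cells on Day 14, 1 was left with doublets kept and 0 without sub-cluster 1. *Acta2*-high pericyte-like cells had 5 genes in place of 2 at least 2-fold above *Acta2*-high fibroblast-like cells. On Day 3, contractile genes were counted whose share of pericyte-like cells lay above that of fibroblast-like cells with intervals apart. This count was 5 in place of 3 when cells were thinned to 1000 UMIs. It rests on the 9 pericyte-like cells of that day, and no share of all genes is given beside it.

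For Day 14 over Day 7 in pericyte-like cells, the log2 ratio turned to -0.10 for *Myh11* with equal weight per cell. With libraries alone it was -0.15 for *Myh11*, -0.31 for *Acta2* and -0.20 for *Tpm2*, and with doublets kept -0.0882 for *Acta2* and -0.0564 for *Tpm2*. *Cnn1* turned to 0.0622 without sub-cluster 1. For Day 7 over Day 3 in fibroblast-like cells, *Myh11* turned to -3.21 with libraries alone and *Tpm1* to -0.0287 without cells holding a pericyte marker UMI. Against *Acta2*-high cells, *Tagln* turned to -0.73 at 10 *Acta2* UMIs, -0.44 when thinned to 1000, -0.10 with doublets kept and -0.27 without sub-cluster 1. *Actg2* turned to -0.75 and -0.72 under the first 2 of these, and *Tpm2* to 0.47 against *Acta2*-high pericyte-like cells. Settings that leave out sub-cluster 1 or hold pericyte-like cells to the *Acta2* limit were added after the data were seen, as were adding an unnamed cluster to the fibroblast-like cells and leaving out fibroblast-like cells with *Rgs5* or with high *Acta2*.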

Other observations

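Some contractile genes were found in other cell classes, and the part of carried-over RNA in these values was not tested. In endothelial-like cells *Tagln* stood at 29.2 CPM (22 to 38.2) on Day 7 in 236 cells and at 255 CPM (229 to 282) on Day 14 in 238 cells, while *Acta2* stood at 108 and 44.4 CPM. *Tagln* was higher and *Acta2* lower on Day 14. The 720 Bmp4-positive mesenchymal-like cells of Day 14 held *Myl9* at 178 CPM, *Tpm1* at 483 CPM and *Tpm2* at 171 CPM, each above the fibroblast-like levels of 16.7, 164 and 27.6 CPM, with *Acta2* at 20.6 CPM and 0 UMIs of *Des*. The 47 epithelial-like cells of Day 7 held *Acta2* at 423 CPM (364 to 489) and *Tpm2* at 253 CPM, and the 725 of Day 14 held them at 17.1 and 53.4 CPM. An unnamed cluster of 1479 cells, 1446 of them from Day 14 and led by *Igfbp2*, *Coch* and *Tnmd*, had *Tagln* at 64.9 CPM and *Acta2* at 24.8 CPM on that day.

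Over 21 sums of a class on a day, the 10 genes most like *Acta2* among 7106 by Pearson's r of log2(CPM + 1) were *Abcc9* (0.887), *Aoc3*, *Tagln* (0.845), *Rgs4*, *Kctd10*, *Slc16a12*, *Oaz2*, *Map3k7cl*, *Vtn* and *Map3k20* (0.815). *Abcc9* and *Vtn* are on the list used to name pericyte-like cells. *Actg2*, *Des*, *Myl9*, *Tpm2*, *Myh11*, *Cald1* and *Tpm1* ranked 12, 13, 16, 29, 31, 70 and 198. The points share libraries and depth, so this is a description.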
